A study of Mus musculus with 24 samples.

Results

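The serpins described here are 9 genes of bone marrow-derived dendritic cells: Serpinb1a, Serpinb2, Serpinb6a, Serpinb6b, Serpinb8, Serpinb9, Serpinb9b, Serpina3f and Serpina3g. They were taken from the deposited expression table by gene symbol, 9 of 55291 symbols, and they were chosen by expression values: Serpinb1a and Serpinb9b differed in TPM between the strains called C57 and B6, and the other 7 are serpins listed with them. The series asks how natural genetic variation in wild-derived mice bears on the transcriptional response to endotoxin. Cells of B6, C57 and PWD mice were grown from bone marrow with GM-CSF and left untreated or given lipopolysaccharide (LPS) from E. coli 0111:B4 at 10 ng/ml for 6 hours. This gave the groups B6_Untreated, B6_LPS, C57_Untreated, C57_LPS, PWD_Untreated and PWD_LPS, each with 4 libraries from independent cultures of individual mice. PWD mice are inbred and descend from wild Mus musculus musculus. The labels do not say in what way the C57 mice differ from the B6 mice. No transgene, deleted allele, age or sex is named in the labels, and all 24 cultures share the GM-CSF protocol, which gives a mixture of myeloid cells.

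Serpins are inhibitors that offer a protease a bait loop and then trap the protease in a covalent complex by refolding around it. Those of clade B lack a classical secretion signal and act mainly inside the cell, where they guard cytosol and nucleus against proteases that leak from granules or lysosomes. In myeloid cells they are known as brakes on granzymes, neutrophil serine proteases, cathepsins and plasminogen activators, and the mouse has expanded several of these genes into families of close paralogs.

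The members sit in 3 clusters on mm10. Serpinb1a (chr13:32842092-32851185, minus strand), Serpinb6b (chr13:32965209-32979067), Serpinb9 (chr13:33003250-33017957), Serpinb9b (chr13:33027416-33041884) and Serpinb6a (chr13:33917918-34002794, minus strand) lie within 1160.7 kb of chromosome 13. Serpinb2 (chr1:107511423-107535478) and Serpinb8 (chr1:107590006-107610484) lie within 99.1 kb of chromosome 1. Serpina3f (chr12:104214544-104221129) and Serpina3g (chr12:104236245-104241939) lie within 27.4 kb of chromosome 12. Members with no strand given here are on the plus strand. All 9 are protein-coding in GENCODE M21. RefSeq promoter windows on GRCm38.p6, from 250 bases before to 50 after a start site, were matched for 8 of the 9. Serpinb1a was not among them. The windows of 4 members, 300 bases each and written 5′ to 3′ on the gene's strand, are shown as examples of genes that LPS raised. Where a gene had several windows the first listed is given. Capitals mark the matches to the first 5 motifs named below them. In Serpinb9b they mark the letters that align with the Serpinb9 match.
Serpinb9 (chr13:33004291-33004590, plus strand): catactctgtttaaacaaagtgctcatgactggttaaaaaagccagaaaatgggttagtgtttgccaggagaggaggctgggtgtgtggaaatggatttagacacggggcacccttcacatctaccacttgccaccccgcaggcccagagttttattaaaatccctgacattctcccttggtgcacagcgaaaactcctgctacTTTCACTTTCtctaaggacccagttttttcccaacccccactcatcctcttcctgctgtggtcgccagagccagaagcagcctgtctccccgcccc
Serpinb9b (chr13:33027164-33027463, plus strand): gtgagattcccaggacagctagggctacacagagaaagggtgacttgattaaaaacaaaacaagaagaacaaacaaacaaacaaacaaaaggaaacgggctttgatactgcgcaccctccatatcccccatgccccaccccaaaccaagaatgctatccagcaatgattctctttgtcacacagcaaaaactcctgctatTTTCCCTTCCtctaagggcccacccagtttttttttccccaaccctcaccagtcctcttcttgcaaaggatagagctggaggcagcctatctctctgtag
Serpinb2 (chr1:107511173-107511472, plus strand): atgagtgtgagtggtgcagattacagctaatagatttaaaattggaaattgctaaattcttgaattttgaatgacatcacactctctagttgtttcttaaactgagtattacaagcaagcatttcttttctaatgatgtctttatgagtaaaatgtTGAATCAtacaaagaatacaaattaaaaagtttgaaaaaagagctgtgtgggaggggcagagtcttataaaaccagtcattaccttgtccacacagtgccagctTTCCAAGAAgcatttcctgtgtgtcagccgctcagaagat
Serpina3g (chr12:104235897-104236196, plus strand): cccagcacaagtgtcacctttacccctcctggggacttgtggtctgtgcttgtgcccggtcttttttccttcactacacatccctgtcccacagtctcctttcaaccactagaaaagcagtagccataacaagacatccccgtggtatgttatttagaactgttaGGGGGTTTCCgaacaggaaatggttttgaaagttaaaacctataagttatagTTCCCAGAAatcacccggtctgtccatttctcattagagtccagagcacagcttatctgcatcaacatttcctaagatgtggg

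Both strands of each window were searched for the core of the interferon-stimulated response element, the AP-1 motif TGANTCA, the interferon-gamma-activated site TTCNNNGAA, the cyclic AMP response element TGACGTCA and the NF-kB consensus, and for TATAAA, which is left in lower case. The Serpinb9 window held the response element core on the minus strand, starting 46 bases before the start site. Of all 32851 RefSeq promoter windows of this length 3.44% held that core. The Serpinb9b window aligned to it over 276 bases with 67.4% identity, and 8 of the 10 letters opposite the core were equal. The unequal ones were A5C and T9C, counted from the 5′ end of the capitals with the Serpinb9 base first, and the Serpinb9b window held no match to any of the 6 motifs. Serpina3g held an NF-kB consensus 85 bases and an interferon-gamma-activated site 33 bases before its start (8.46% and 8.30% of all windows). Serpinb2 held an AP-1 motif 94 bases before its start (7.81% of all windows) and an interferon-gamma-activated site 11 bases after it, and TATAAA 29 bases before it (13.6% of all windows). The Serpinb6b window, of a gene that LPS raised in B6 and C57, held none of the 6 motifs. Serpinb8, called lower with LPS in B6 and PWD, held 2 AP-1 motifs, and 1 of the 2 windows of Serpinb6a, not called higher with LPS in any strain on the deposited scale, held the response element core and 2 interferon-gamma-activated sites. Both Serpina3f windows held 1 such site. These matches are letters of the reference genome. The promoters of C57 or PWD mice were not analysed here.

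Values are TPM, transcript abundances per gene length scaled to a total of 1000000 in each library. They keep no read depth, so counting error is unknown and values near 1 TPM are the least certain. Structural RNA took 28.8% to 44.2% of TPM. It was higher in libraries 1 and 2 than in 3 and 4 of PWD_Untreated (40.3% to 41.9% against 28.8% to 29.3%) and of C57_LPS (39.9% to 41.2% against 31.6% to 33.4%). Xist stood at 41.9 TPM or more in every library numbered 3 or 4 and at 0.0901 or less in those numbered 1 or 2, so the numbers also part the mice by sex. All 9 members passed the filter for testing, 1 TPM or more in at least 4 libraries, which 13246 symbols passed. Serpinb9b and Serpina3f stood under 1 TPM in part of the groups and passed it through the others.

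Serpinb9, the mouse counterpart of the human granzyme B inhibitor PI-9, was one of the most LPS-responsive members. Untreated B6 cells held 18.4, 14.2, 15.3 and 21.3 TPM and LPS-treated B6 cells 139, 109, 146 and 152 TPM in libraries 1 to 4. In C57 the untreated libraries held 14.6, 15.4, 14.5 and 12.1 TPM and the LPS-treated ones 45.9, 57.3, 46.4 and 47.3 TPM. In PWD they held 3.63, 4.23, 6.68 and 6.56 TPM and 8.71, 12.5, 12.8 and 13.1 TPM. Every LPS-treated library stood above every untreated one of its strain, B6_LPS stood far above all other groups, and both PWD groups stood below the untreated B6 cells. In bulk libraries such as these, fewer cells of a type and less RNA per cell cannot be told apart.

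Serpinb9b, a close paralog whose coding sequence is 86.5% identical to that of Serpinb9, was lower and followed the same order of strains under LPS. Untreated and LPS-treated B6 libraries held 3.63, 2.81, 3.44 and 3.52 TPM and 33.1, 28.4, 24.3 and 27.0 TPM. The C57 libraries held 7.50, 5.50, 5.45 and 4.57 TPM untreated and 10.00, 13.9, 15.5 and 12.5 TPM with LPS. The PWD libraries held 0.456, 1.05, 0.613 and 0.4997 TPM untreated and 3.29, 4.12, 5.38 and 3.90 TPM with LPS. Untreated C57 cells thus lay above untreated B6 cells while LPS-treated C57 cells lay below LPS-treated B6 cells, in each case without overlap.

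Serpinb6b, known in the mouse as an inhibitor of granzyme A, had the largest ratio between strains among the 9, with LPS. B6 libraries held 15.0, 10.7, 11.0 and 15.6 TPM untreated and 46.1, 38.2, 50.02 and 49.3 TPM with LPS. C57 libraries held 7.07, 8.63, 6.76 and 7.16 TPM untreated and 15.7, 19.1, 15.3 and 13.7 TPM with LPS. PWD libraries held 1.58, 1.17, 1.83 and 1.45 TPM and 1.48, 1.66, 2.40 and 1.59 TPM. The 3 strains were separated in both treatments, B6 above C57 above PWD, and the PWD groups overlapped each other between 1.17 and 2.40 TPM.

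Serpinb1a, the mouse counterpart of the human monocyte and neutrophil elastase inhibitor, differed between strains far more than between treatments. B6 libraries held 2.60, 2.99, 2.69 and 5.03 TPM untreated and 4.22, 3.59, 6.84 and 3.75 TPM with LPS. C57 libraries held 25.9, 19.8, 28.6 and 25.6 TPM untreated and 20.0, 27.3, 31.6 and 22.5 TPM with LPS. PWD libraries held 22.6, 22.6, 25.9 and 27.6 TPM untreated and 26.1, 27.3, 27.4 and 24.3 TPM with LPS. All 16 C57 and PWD libraries lay between 19.8 and 31.6 TPM, and all 8 B6 libraries lay below them.

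Serpinb6a, whose human counterpart inhibits cathepsin G, was likewise lowest in B6. B6 libraries held 33.0, 26.1, 31.9 and 33.4 TPM untreated and 31.4, 19.7, 33.4 and 31.8 TPM with LPS. C57 libraries held 84.4, 84.1, 97.1 and 81.8 TPM untreated and 58.1, 55.6, 85.2 and 67.9 TPM with LPS. PWD libraries held 78.8, 74.8, 81.9 and 88.4 TPM untreated and 72.9, 68.3, 61.3 and 58.3 TPM with LPS. Again the B6 libraries lay below all others. Its paralog Serpinb6b, 86.4% identical in coding sequence, was highest in B6.

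Serpinb2, the gene of plasminogen activator inhibitor 2, was the most abundant member once LPS was given. B6 libraries held 90.0, 138, 43.6 and 51.5 TPM untreated and 355, 453, 299 and 255 TPM with LPS. C57 libraries held 89.3, 109, 92.0 and 88.3 TPM untreated and 466, 456, 511 and 501 TPM with LPS. PWD libraries held 39.7, 27.3, 56.7 and 63.6 TPM untreated and 231, 206, 235 and 247 TPM with LPS. With LPS the 3 strains did not overlap, C57 highest and PWD lowest. In B6_Untreated, libraries 1 and 2 stood above 3 and 4. The 3′ part of Serpinb2 (chr1:107511423-107535478) overlaps Serpinb10 (chr1:107529003-107549271) on the same strand, and 10.4% of the 50-base windows of its transcripts also occur in Serpinb10 transcripts, so part of its level could be shared with that gene.

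Serpinb8, whose human counterpart inhibits the convertase furin in vitro, ranged over 18.6 to 29.4 TPM in untreated and 10.2 to 22.9 TPM in LPS-treated B6 cells. The ranges were 30.2 to 36.4 TPM and 21.7 to 28.0 TPM in C57 and 5.11 to 7.17 TPM and 3.27 to 4.84 TPM in PWD. Both PWD groups lay below every B6 and C57 library.

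Serpina3g, a cytoplasmic serpin of the mouse known to inhibit lysosomal cathepsins such as cathepsin B, and its paralog Serpina3f belong to the expanded antichymotrypsin cluster. Serpina3g stood at 31.4, 19.4, 21.7 and 27.7 TPM in untreated and 41.6, 32.2, 47.6 and 38.4 TPM in LPS-treated B6 cells. In C57 it stood at 10.3, 12.4, 9.29 and 13.6 TPM and 21.6, 25.4, 25.2 and 24.5 TPM, and in PWD at 19.7, 18.6, 27.4 and 33.97 TPM and 18.9, 20.0, 21.5 and 24.3 TPM. The groups with and without LPS were apart in B6 and C57 and overlapped in PWD. Serpina3f was low throughout, at 0.530 to 0.709 TPM and 1.69 to 2.83 TPM in B6, 0.589 to 1.37 TPM and 2.56 to 4.29 TPM in C57, and 1.10 to 1.82 TPM and 1.41 to 2.24 TPM in PWD. Of the 50-base windows of the Serpina3g and Serpina3f transcripts 15.5% and 10.6% also occur in another gene, so reads could be split between paralogs. For Serpinb9 and Serpinb9b that share was 0.378% and 0.478%. These shares are of reference transcripts, and PWD alleles were not compared.

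**Figure D1:**
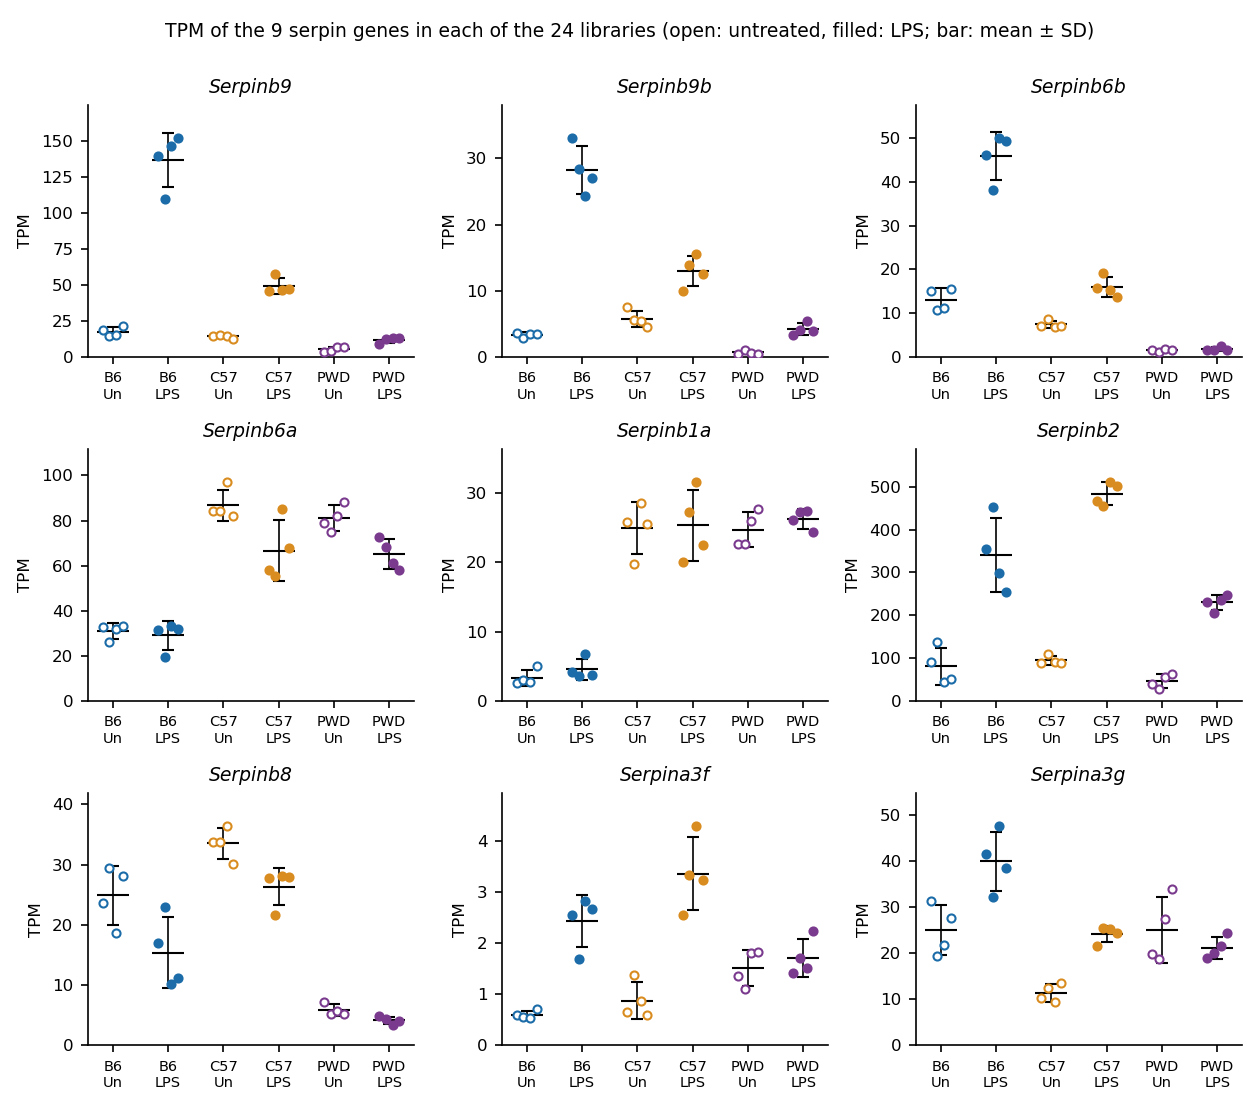
TPM (linear axis from 0, scaled separately for each gene) of the 9 serpins in the 6 groups; each point is 1 of the 4 libraries of a group, open without treatment and filled with LPS, and the bars are the mean and SD. Serpinb9, Serpinb9b and Serpinb6b peak in LPS-treated B6 cells, while Serpinb1a and Serpinb6a are low in both B6 groups.

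The comparison of C57 with B6 chose the members, so its values are given as a description, without a test. In untreated cells the mean of Serpinb1a was 7.51 times that of B6, a log2 difference of 2.61 on the scale of TPM plus 1, which is the scale of every log2 value below. Serpinb6a differed by 1.46, Serpinb9b by 0.62, Serpinb8 by 0.43, Serpinb6b by -0.73 and Serpina3g by -1.06. The libraries of these 6 members did not overlap between the untreated strains, as was the case for 39.5% of all genes tested. With LPS the mean of Serpinb1a was 5.51 times that of B6. Serpinb9b now differed by -1.07, Serpinb9 by -1.45, Serpinb6b by -1.47, Serpina3g by -0.69, Serpinb6a by 1.18 and Serpinb2 by 0.54. With LPS 7 members did not overlap (background 53.1%), Serpinb8 and Serpina3f being the exceptions. The LPS responses of single mice did not overlap between C57 and B6 for 3 members, Serpinb6b, Serpinb9 and Serpinb9b (background 19.8%), all 3 smaller in C57. Serpinb9b is the member whose strain difference turned with treatment, above B6 without LPS and below it with LPS. The tests that follow reuse the same B6 and C57 libraries, within a strain or against PWD, and so are not independent of the choice.

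LPS raised 7 of the 9 serpins in B6 cells and lowered 1, by limma with Benjamini-Hochberg adjustment over all 13246 genes, which called 11.9% of all genes higher and 59.7% lower. The median log2 difference was 1.10 over the members against -0.43 over all genes. Serpinb9 rose by 2.92 (SE 0.16, limma adjusted p = 2.31e-14), a mean 7.90 times higher. Serpinb9b rose by 2.74 (SE 0.15, limma adjusted p = 1.51e-14) and Serpinb2 by 2.18 (SE 0.29, limma adjusted p = 1.33e-06). Next came Serpinb6b at 1.75, Serpina3f at 1.10 and Serpina3g at 0.66, all called. Serpinb8 fell by 0.71 (limma adjusted p = 0.00101). Scaling the libraries by median-of-ratios factors shifted the median of all genes by 0.43 in B6, 0.29 in C57 and 0.32 in PWD, and in B6 called 31.2% higher and 30.4% lower of all genes. Under it 8 members were called higher and 0 lower in B6. Serpinb8 then stood at -0.18, not called, and Serpinb6a turned from -0.12 (adjusted p = 0.459) to 0.43 (limma adjusted p = 0.00522). Serpinb1a was called at 0.37 (limma adjusted p = 0.0488), with overlapping groups. Leaving out B6_LPS 1 or 3 or B6_Untreated 1, 2 or 3 ended that call, as did the fit that blocks on the mouse (adjusted p = 0.0740).

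In C57 cells LPS raised 6 serpins and lowered 1 (10.4% of all genes higher and 52.2% lower). The median difference was 1.03 over the members and -0.32 over all genes, and median-of-ratios scaling called 6 members higher and 0 lower among 24.8% higher and 26.4% lower of all genes. Serpinb2 rose by 2.34 (SE 0.29, limma adjusted p = 1.10e-06) and Serpinb9 by 1.73 (SE 0.16, limma adjusted p = 1.21e-09). The 4 others that rose were Serpina3f (1.23), Serpinb9b (1.05), Serpina3g (1.03) and Serpinb6b (1.01). Serpinb6a fell by 0.39 (limma adjusted p = 0.0143), a call lost without C57_LPS 1, C57_LPS 2 or C57_Untreated 3 (adjusted p up to 0.0656) and under median-of-ratios scaling (-0.029). Serpinb8 lay at -0.34 (adjusted p = 0.101), lower with LPS in all 4 mice, and was called when the mouse was blocked (adjusted p = 0.0284), but stood at 0.016 after median-of-ratios scaling. Serpinb1a stood at 0.01, with a 95% confidence interval of -0.33 to 0.36.

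In PWD cells LPS raised 3 members and lowered 2. It raised Serpinb2 by 2.34 (SE 0.29, limma adjusted p = 9.41e-07), Serpinb9b by 1.64 (SE 0.15, adjusted p = 4.59e-10) and Serpinb9 by 1.04 (SE 0.16, adjusted p = 3.08e-06). These are 3 of 9 members called higher against 11.1% of all genes. The median difference was 0.11 over the members and -0.32 over all genes. Serpinb8 and Serpinb6a were called lower, at -0.42 and -0.31 (limma adjusted p = 0.0462 and 0.0483; 52.4% of all genes called lower). Both calls were lost without PWD_Untreated 1, 3 or 4 or PWD_LPS 2, 3 or 4, which left 3 members called, and under median-of-ratios scaling Serpinb6a turned to 0.068. Serpinb6b stood at 0.15 (95% confidence interval -0.12 to 0.42), Serpina3f at 0.11 (-0.19 to 0.41) and Serpina3g at -0.19 (-0.53 to 0.14), none of them called. Serpinb1a stood at 0.09 (-0.25 to 0.43). Median-of-ratios scaling called 6 members higher and 0 lower in PWD (27.1% higher and 26.1% lower of all genes), adding Serpinb6b at 0.38, Serpina3f at 0.34 and Serpinb1a at 0.46, and it put Serpina3g at 0.18.

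**Figure D2:**
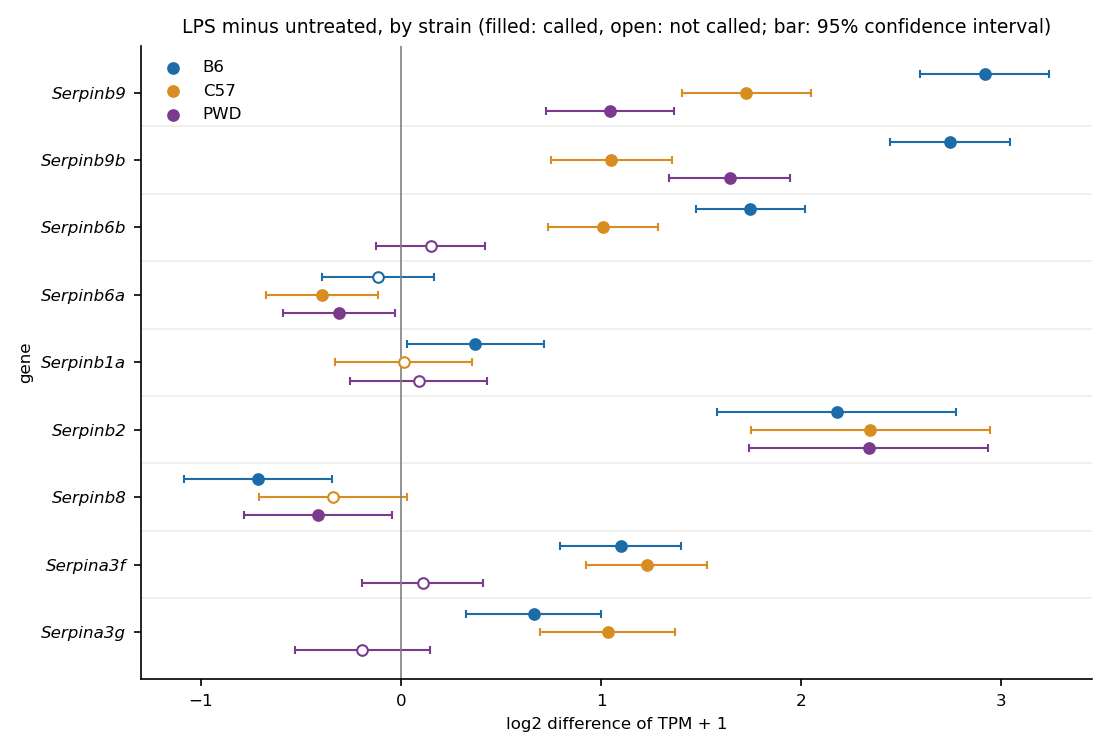
Log2 difference of TPM plus 1 between LPS-treated and untreated cells (x axis) for each serpin (y axis) in B6, C57 and PWD; points are limma estimates over 4 libraries per group, filled where called, and bars are 95% confidence intervals. Serpinb2 lies between 2.18 and 2.34 in all 3 strains, whereas Serpinb9 runs from 1.04 in PWD to 2.92 in B6.

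Mouse by mouse, the LPS difference of Serpinb9 was 2.85, 2.86, 3.18 and 2.78 in the 4 B6 mice, 1.59, 1.83, 1.61 and 1.88 in the 4 C57 mice and 1.07, 1.37, 0.84 and 0.89 in the 4 PWD mice, so no mouse of one strain overlapped those of another. For Serpinb9b the values were 2.88, 2.95, 2.51 and 2.63 in B6, 0.37, 1.20, 1.36 and 1.28 in C57 and 1.56, 1.32, 1.98 and 1.71 in PWD. C57 mouse 1, at 0.37, stood apart from the other 3. Serpina3g gave 0.39, 0.70, 1.10 and 0.46 in B6, 1.01, 0.98, 1.35 and 0.80 in C57 and -0.06, 0.09, -0.34 and -0.47 in PWD, where only mouse 2 was higher with LPS.

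The size of the LPS response itself differed between PWD and B6 for 5 members, all smaller in PWD (16.0% of all genes higher and 7.50% lower). The median was -0.86 over the members and 0.14 over all genes. The same 0 higher and 5 lower were counted after median-of-ratios scaling, which called 14.9% higher and 16.8% lower of all genes. The difference was -1.87 for Serpinb9 (SE 0.22, limma adjusted p = 5.69e-07) and -1.60 for Serpinb6b (SE 0.19, limma adjusted p = 4.54e-07). For Serpinb9b it was -1.10 (limma adjusted p = 2.94e-04), for Serpina3f -0.99 (9.04e-04) and for Serpina3g -0.86 (0.00799). Serpinb9b lost its call with a pseudocount of 0.1 TPM (-0.49), its untreated PWD level being under 1 TPM in 3 of 4 libraries. With mice 1 and 2 alone 3 members were called (27.7% of all genes higher and 3.93% lower). Against C57, 4 responses were smaller in PWD (5.41% of all genes higher and 5.99% lower), with a median of -0.07 over the members and 0.00 over all genes. These were Serpina3g at -1.23 (SE 0.23, limma adjusted p = 6.04e-04), Serpina3f at -1.12 (4.78e-04), Serpinb6b at -0.86 (0.00239) and Serpinb9 at -0.68 (0.0440). The last was lost in 11 of 16 fits that left out 1 library, all but those without C57_Untreated 2, PWD_Untreated 1, PWD_Untreated 2, PWD_LPS 3 or PWD_LPS 4, with adjusted p up to 0.107. With mice 1 and 2 alone 2 of the 4 were called (15.8% of all genes higher and 2.20% lower). Serpinb9b ran the other way, at 0.59 (adjusted p = 0.0660), and passed the threshold without C57_LPS 3, C57_Untreated 4, PWD_LPS 1 or PWD_Untreated 2 (up to 0.70), at 1.38 with a pseudocount of 0.1 TPM, and at 0.81 without structural RNA. For Serpinb2 the differences of response were 0.16 (95% confidence interval -0.68 to 1.01) and -0.01 (-0.85 to 0.84), neither called. With mice 3 and 4 alone both were called, at -0.53 and -0.49 (limma adjusted p = 0.0255 and 0.0373).

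In untreated cells, PWD stood above B6 for 3 members and below it for 5 (37.2% of all genes higher and 19.7% lower). The median was -0.70 over the members and 0.14 over all genes. Median-of-ratios scaling gave the same 3 and 5 among 31.6% higher and 30.2% lower of all genes. The elastase and cathepsin G inhibitors were among the higher ones. Serpinb1a was 7.43 times the B6 mean (log2 2.60, SE 0.17, limma adjusted p = 3.66e-13) and Serpinb6a 2.60 times (log2 1.36, adjusted p = 2.08e-09), and Serpina3f differed by 0.65 at under 2 TPM. The granzyme inhibitor genes and Serpinb9b were lower, Serpinb6b at -2.48 (SE 0.13, limma adjusted p = 4.38e-15), Serpinb9 at -1.56 and Serpinb9b at -1.40. Serpinb8 was lower at -1.92 (limma adjusted p = 1.06e-09). Serpina3g stood at -0.02 (95% confidence interval -0.36 to 0.31), not called. Serpinb2 was called lower at -0.70 with overlapping groups, lost the call without B6_Untreated 1 or 2 or PWD_Untreated 1 or 2 (adjusted p up to 0.193), and was higher in PWD at 0.34 (limma adjusted p = 0.0126) in mice 3 and 4 alone.

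With LPS Serpinb6b, Serpinb9 and Serpinb9b stood further below B6, as the differences of response above show. PWD was lower for 6 members and higher for 2 (49.7% of all genes higher and 19.0% lower), with a median of -0.88 over the members and 0.28 over all genes. Median-of-ratios scaling called 2 higher and 7 lower among 35.7% higher and 34.1% lower of all genes, Serpinb2 being the addition at -0.87. Serpinb6b differed by -4.08 (SE 0.13, limma adjusted p = 7.66e-20), Serpinb9 by -3.43 (SE 0.16, adjusted p = 2.08e-16) and Serpinb9b by -2.50 (SE 0.15, adjusted p = 2.94e-14). Their PWD means were 0.0389, 0.0861 and 0.148 of the B6 means. How reads of PWD alleles were placed on mm10 was not tested for any comparison of PWD with B6 or C57. Serpinb8 was lower at -1.62 and Serpina3g at -0.88 (limma adjusted p = 1.66e-08 and 4.06e-05). Serpina3f, at -0.34 (adjusted p = 0.0447), overlapped and lost the call without B6_LPS 1, 3 or 4 or PWD_LPS 1, 2 or 3 (adjusted p up to 0.125). Serpinb1a and Serpinb6a stood above B6 in PWD with LPS too, by 2.32 and 1.16, and Serpinb2, at -0.54 (adjusted p = 0.103), was not called although its groups did not overlap.

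Against C57 the elastase and cathepsin G inhibitors were not called. For Serpinb1a PWD and C57 differed by -0.01 untreated (95% confidence interval -0.35 to 0.33) and by 0.07 with LPS (-0.28 to 0.41). For Serpinb6a the differences were -0.10 (-0.38 to 0.18) and -0.02 (-0.30 to 0.26). The latter was 0.31 in mice 1 and 2 alone (limma adjusted p = 0.175) and was called lower in mice 3 and 4 alone, at -0.34 (limma adjusted p = 0.0262). In untreated cells 5 members were lower and 2 higher in PWD (20.1% of all genes higher and 26.2% lower), and with LPS 6 were lower and 0 higher (24.4% of all genes higher and 29.8% lower). The medians over the members were -1.06 and -1.07, and over all genes -0.04 and -0.05. Serpinb8 was lower at -2.35 untreated (SE 0.18, limma adjusted p = 3.03e-11) and at -2.43 with LPS (adjusted p = 1.54e-11). Serpinb6b was lower at -1.75 and -2.61, Serpinb9 at -1.30 and -1.99, and Serpinb9b at -2.03 and -1.43, all called. Serpinb2 was lower at -1.06 (limma adjusted p = 0.00448) and -1.07 (adjusted p = 0.00359). The Serpina3 genes were the higher ones in untreated PWD cells, Serpina3g at 1.04 (limma adjusted p = 7.52e-06) and Serpina3f at 0.44, a call lost without C57_Untreated 1 or 4 or PWD_Untreated 4 (adjusted p up to 0.0627). With LPS Serpina3f was lower at -0.68 and Serpina3g stood at -0.19, not called. The comparisons of PWD with B6 and with C57 share the PWD libraries.

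**Figure D3:**
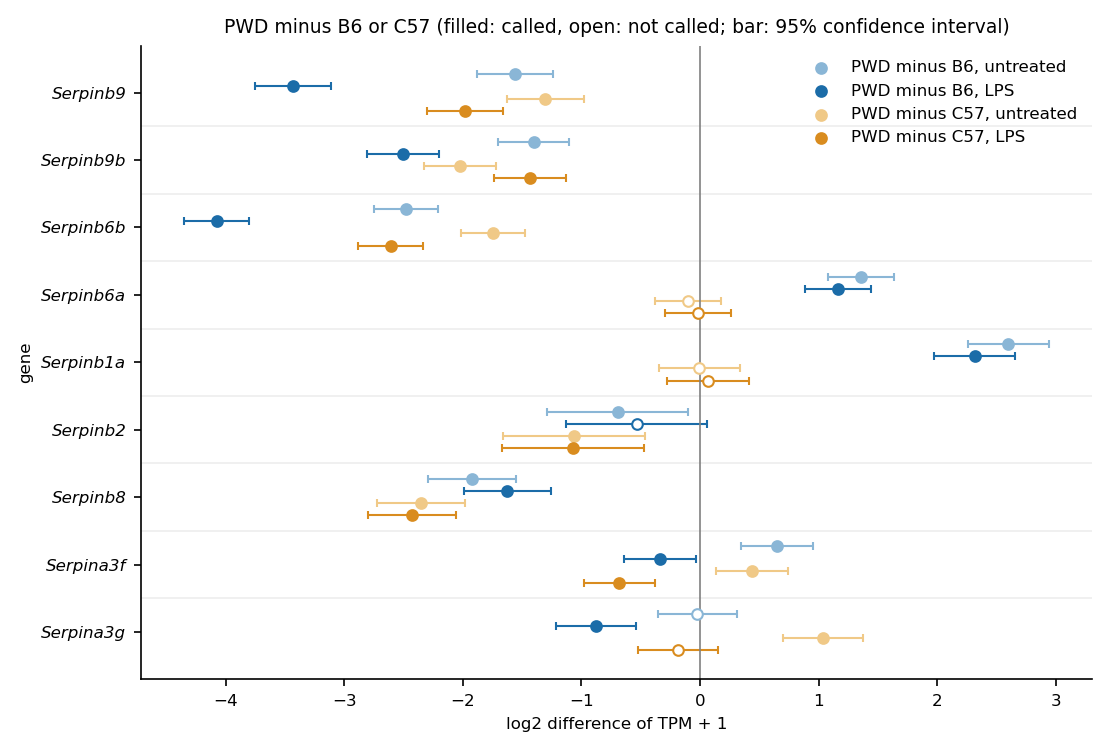
Log2 difference of TPM plus 1 between PWD and either B6 (blue) or C57 (orange) for each serpin, pale without treatment and dark with LPS; points are limma estimates over 4 libraries per group, filled where called, and bars are 95% confidence intervals. Serpinb1a and Serpinb6a lie above 1 against B6 and near 0 against C57, while Serpinb6b with LPS reaches -4.08 against B6.

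The Serpinb9 family held further genes that stood above 1 TPM in PWD alone. Serpinb9g stood at 20.3, 17.7, 24.9 and 25.9 TPM in untreated and 20.1, 16.7, 18.5 and 17.8 TPM in LPS-treated PWD cells, and at no more than 0.0998 TPM in any B6 or C57 library. Serpinb9f stood at 5.40, 5.01, 6.17 and 5.10 TPM and 5.98, 5.89, 6.23 and 5.20 TPM in PWD and was listed at 0 in all 16 other libraries. Serpinb9e and Serpinb9h, named here after their values were seen, reached 0.804 and 1.70 TPM in PWD and did not pass the filter. Serpinb9g and Serpinb9f passed it only through the PWD libraries, so no test between strains is given for them. With LPS in PWD, Serpinb9g differed by -0.26 (limma adjusted p = 0.0354), a size below that of the all-gene median of -0.32, and Serpinb9f by 0.09 (adjusted p = 0.397), while Serpinb9 and Serpinb9b rose in the same cells. In the reference both genes share most of their letters. Their coding sequences are 98.7% identical to each other and 82.0% (Serpinb9g) and 82.4% (Serpinb9f) to Serpinb9, and 54.8% of the 50-base windows of Serpinb9g and 78.7% of those of Serpinb9f occur in another gene. The single values of Serpinb9e, Serpinb9f, Serpinb9g and Serpinb9h are therefore uncertain, and how reads of PWD alleles were placed on mm10 was not tested.

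Summed over the 8 Serpinb9 genes from Serpinb9 to Serpinb9h, the mean level was 20.7 TPM in untreated B6, 19.9 in untreated C57 and 35.2 in untreated PWD (SD 3.49, 2.32 and 5.80, n = 4 each). With LPS it was 165, 62.2 and 41.2 TPM (SD 18.5, 6.51 and 1.97). Untreated PWD cells, the lowest group for Serpinb9 alone, were thus the highest untreated group for the family sum, with every library above those of B6 and C57. Serpinb9e to Serpinb9h made 81.8% to 86.9% of that sum in untreated and 58.2% to 69.8% in LPS-treated PWD cells, and at most 0.475% in a B6 or C57 library.

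**Figure D4:**
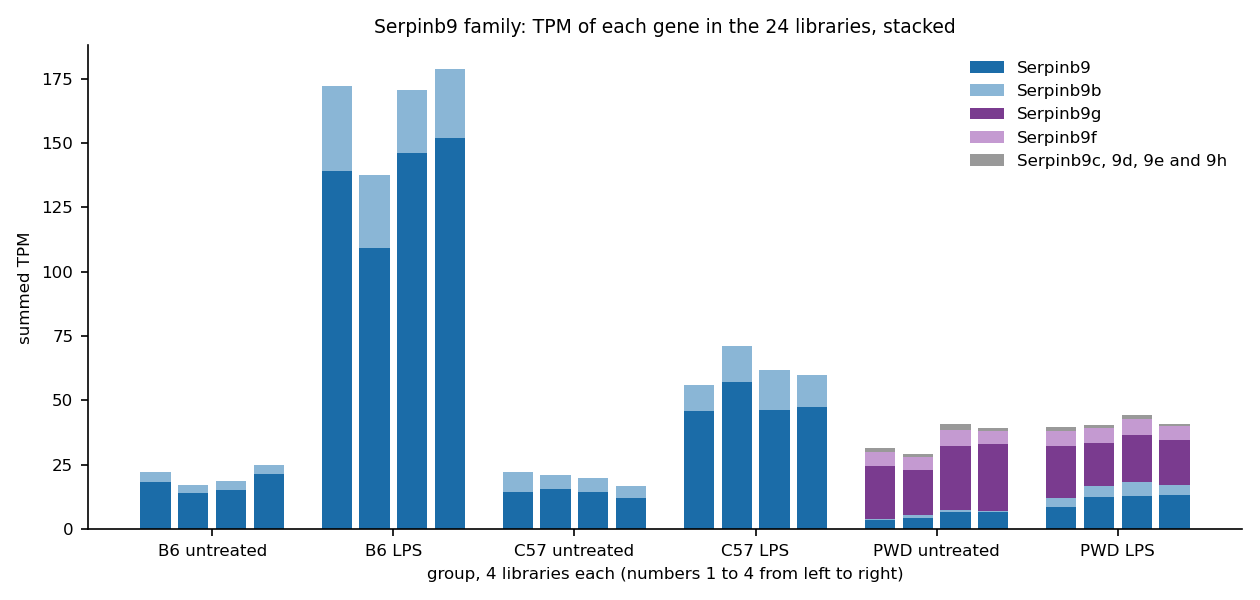
Summed TPM of the 8 Serpinb9 genes (y axis, from 0) in each of the 24 libraries, 4 bars per group, stacked by gene. Blue parts (Serpinb9 and Serpinb9b) fill the B6 and C57 bars, and violet parts (Serpinb9g and Serpinb9f) make most of each PWD bar.

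Of the other serpins in the table, 10 passed the filter. Of the 5 of clade B outside the members, Serpinb9f and Serpinb9g did so only through PWD. Of the other 3, Serpinb10 was called higher in PWD than in either strain with and without LPS, and Serpinb1b with LPS only. Serpinb12 was called higher in PWD than in C57 with and without LPS. It stood at no more than 0.979 TPM in any B6 library and passed the filter through C57 and PWD. No test against B6 is therefore given for it. Of all genes 37.2% and 49.7% were called higher in PWD against B6 without and with LPS, and 20.1% and 24.4% against C57. Serpinb10, the neighbour that overlaps Serpinb2, is listed in GENCODE M21 as a polymorphic pseudogene. It had means of 4.16 and 0.797 TPM in B6, 10.9 and 6.31 in C57 and 17.3 and 18.5 in PWD, untreated and LPS in turn. It fell with LPS, to a difference of -1.45 in B6 and -0.70 in C57 (limma adjusted p = 7.77e-06 and 0.0114), opposite to Serpinb2. Serpina3i, next to Serpina3g on chromosome 12 and, of 9 other genes listed for that cluster, the only one to pass the filter, stood at 1.86 to 3.96 TPM untreated and 1.09 to 4.87 TPM with LPS in PWD and at no more than 0.156 TPM elsewhere.

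The proteases these serpins are known to inhibit were measured in the same cells. All 6 granzyme and perforin genes listed stood under 1 TPM in every library, and their sum did not exceed 0.879 TPM. The 4 neutrophil serine proteases summed to 2.85 to 4.60 TPM in untreated B6, 5.87 to 11.6 in untreated C57 and 4.32 to 7.43 in untreated PWD cells. Prtn3, proteinase 3, was higher in PWD than in B6 by 0.96 untreated and 0.75 with LPS, and Elane, neutrophil elastase, was lower at -0.73 untreated (limma adjusted p = 2.67e-05, 3.94e-04 and 1.34e-04). The lysosomal cysteine cathepsins were abundant, and of 7 tested LPS raised 1 and lowered 2 in B6, raised 0 and lowered 4 in C57, and raised 1 and lowered 4 in PWD. Over all genes LPS raised 11.9% and lowered 59.7% in B6, raised 10.4% and lowered 52.2% in C57, and raised 11.1% and lowered 52.4% in PWD. In untreated cells 3 of the 7 were called higher and 3 lower in PWD than in B6 (37.2% of all genes higher and 19.7% lower). Ctss, cathepsin S of antigen processing, averaged 1242, 1408 and 822 TPM in untreated B6, C57 and PWD cells. It was lower in PWD than in B6 at -0.60 (limma adjusted p = 4.68e-06). In the same order Ctsb, the gene of cathepsin B, averaged 842, 1286 and 1117 TPM and Ctsl 246, 387 and 469 TPM.

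Plau, the urokinase that Serpinb2 is known to inhibit, moved opposite to it with LPS. It had means of 83.3 TPM in untreated and 18.8 TPM in LPS-treated B6 cells, 141 and 68.7 TPM in C57 and 147 and 59.2 TPM in PWD. It fell by 2.09 with LPS in B6, fell by 1.04 in C57 and fell by 1.28 in PWD (limma adjusted p = 5.78e-14, 6.78e-08 and 1.20e-09), while Serpinb2 rose in each strain. Plat, the tissue plasminogen activator, rose in B6 and C57 by 2.54 and 1.71 and stood at 0.29 in PWD (limma adjusted p = 1.15e-14, 6.18e-11 and 0.0630). Of 4 genes of the plasminogen system tested, LPS raised 1 and lowered 1 in B6, raised 2 and lowered 2 in C57, and raised 0 and lowered 1 in PWD, beside 11.9% of all genes higher and 59.7% lower in B6, 10.4% and 52.2% in C57 and 11.1% and 52.4% in PWD. Furin rose with LPS in B6 by 0.52 and in C57 by 0.21 (limma adjusted p = 3.47e-06 and 0.0311) and stood at -0.02 in PWD (adjusted p = 0.887).

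The strains differed in the markers of other myeloid cells that GM-CSF cultures can hold. The 8 conventional dendritic cell markers summed to 6713 to 8917 TPM in untreated B6, 2629.7 to 3347 in C57 and 3102 to 5351 in PWD cells, and 1 of them, Flt3, was under 1 TPM in every library. The 12 neutrophil and precursor markers summed to 1869 to 2126, 2705 to 4331 and 1804 to 3039.6 TPM in the same order, and no C57 library overlapped B6 in the untreated groups. The 7 eosinophil markers summed to 96.1 to 217, 390.3 to 514 and 1032 to 1321 TPM. Epx and Prg3 passed the filter only through PWD, so no test between strains is given for them. Ccr3 stood under 1 TPM in every B6 library and passed the filter through other strains, so no test against B6 is given for it. It was called higher in PWD than in C57 in both treatments. The rest of the 7 were called higher in PWD than in B6 and C57 in both treatments. Of all genes 37.2% and 49.7% were called higher in PWD against B6 without and with LPS, and 20.1% and 24.4% against C57. The 8 macrophage and monocyte markers summed to 1051 to 1337, 1139 to 1235 and 745 to 877 TPM. The 8 mast cell and basophil markers reached 13.8 TPM at most, the 4 B cell markers 7.53 and the 6 T and NK cell markers 1.72. The eosinophil sum, like Serpinb1a and Serpinb6a, was higher in every C57 and PWD library than in any B6 library of the same treatment. Between C57 and PWD the likeness ended. In untreated cells the sum had medians of 412 TPM in C57 and 1198 TPM in PWD. Serpinb1a averaged 25.0 and 24.7 TPM there, and Serpinb6a 86.8 and 81.0 TPM. The higher sum of C57 than of B6 rested mostly on Ear2, at means of 411 TPM in untreated C57 and 148 TPM in untreated B6 cells. Siglecf averaged 8.88 and 8.77 TPM there, Prg2 overlapped, and Epx and Prg3 stood under 1 TPM in all B6 and C57 libraries. Ccr3 stood under 1 TPM in all B6 libraries but not in all C57 libraries of either treatment. The dendritic cell sum, like Serpinb6b, was higher in every B6 library than in any other of the same treatment. C57 and PWD stood in opposite order for the 2. With LPS the sum had medians of 2819 TPM in C57 and 4359.8 TPM in PWD, and Serpinb6b averaged 15.96 and 1.79 TPM. Without LPS the sum had medians of 2792 and 4375 TPM, with overlapping libraries, and Serpinb6b was again lower in PWD. Cd74 and H2-Ab1 made most of the dendritic cell sum, at means of 5789.6 and 1473 TPM in untreated B6 cells. Itgax was called higher in PWD than in B6 with LPS (limma adjusted p = 0.00442), at means of 238, 244 and 324 TPM in B6, C57 and PWD. The part of cell makeup in these results was not tested.

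Within groups, libraries of mice 1 and 2 stood wholly apart from those of mice 3 and 4 for 7 of 9 members in B6_LPS (32.1% of all genes). Serpinb2, Serpinb8 and Serpinb9b were higher in mice 1 and 2, and Serpinb6a, Serpinb6b, Serpinb9 and Serpina3f in mice 3 and 4. In PWD_Untreated 6 members were split, all higher in mice 3 and 4, where structural RNA took the smaller share (77.4% of all genes were split). The counts were 5 in PWD_LPS (36.2%), 4 in C57_LPS (64.4%), 2 in C57_Untreated (36.3%) and 1 in B6_Untreated (33.0%). Sex and library number cannot be told apart here.

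Across the 24 libraries the members fell into a few patterns, given as Pearson correlations of log2(TPM + 1). These are descriptions over libraries that share strain, treatment and culture. Serpinb9 and Serpinb9b ran together at 0.952, Serpinb6b with Serpinb9 at 0.919 and with Serpinb9b at 0.849, and Serpinb1a with Serpinb6a at 0.929. Among 7710 named genes whose highest group mean reached 10 TPM, those most like Serpinb9 were Slfn9 (0.986), Car13 (0.985) and Marchf5 (0.982), and those most like Serpinb9b Car13 (0.971), Rasa4 (0.966) and Bst2 (0.964). Serpinb6b was most like H2-Q7 (0.983), Crybg1 (0.982) and Psmb8 (0.981). Among the closest to Serpinb2 were Jag1 (0.954) and Acod1 (0.951), and the closest to Serpinb1a were Ifrd1 (0.973), Wfdc17 (0.972) and Lipn (0.970). Serpinb6a was closest to Lrrc59 (0.959), Neu1 (0.955) and Abcd3 (0.951) and Serpinb8 to Mgst2 (0.971), H4c6 (0.971) and H3c7 (0.967). The Serpina3 genes had looser company, Sowahc (0.945), Tle3 (0.919) and Enpp4 (0.911) for Serpina3f and Ccl17 (0.865), Srgn (0.861) and Ms4a4a (0.850) for Serpina3g.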

How the data were processed

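Bulk RNA-seq of bone marrow-derived dendritic cells was analysed from 24 libraries in 6 groups of 4. Per the labels' protocols, RNA was purified with Qiagen RNeasy kits and libraries were made from 1 µg of total RNA with a stranded NEB kit. STAR, edgeR and the build mm10 are named in the submitters' processing notes, with no role or version. The authors deposited TPM only, so the number of reads, and with it counting error, is unknown. The sources used here do not name the annotation behind the table.

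Rows with the same symbol were summed (55401 rows, 55291 symbols). A model of 6 group means was fitted to log2(TPM + 1) in limma (version 3.58.1, R version 4.3.3), with 18 residual degrees of freedom and a robust, intensity-dependent variance prior. It took in the 13246 symbols that reached 1 TPM in 4 or more libraries. P-values were adjusted over all genes tested by Benjamini-Hochberg, called under 0.05. Libraries of a group are cultures of separate mice, so p-values measure the spread between mice and cultures. The procedure was tested on simulated data. C57 and B6 were compared without a test, because that contrast chose the members. Fold changes of low genes are understated by the added 1 TPM.

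The study's design text gives 4 replicates per genotype from individual mice, so libraries of one strain with the same number were taken as 1 mouse. The deviations of the 12 such pairs from their group means correlated at 0.0513 to 0.176, and 9 of 12 correlated best with their own number. Fits with a replicate block, other scalings, filters, pseudocounts and left-out libraries are given in the closing section.

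All 9 members are described. Other genes are named only from lists (the most abundant called genes) or as the 3 closest in correlation to a member. Some genes that fall under these rules are not reported here. The members and lists were chosen with earlier results of these data known. Positions are from GENCODE M21 on mm10, promoter windows from RefSeq on GRCm38.p6, and identities and motif matches were computed with Biopython 1.88.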

Additional observations from a re-analysis of the deposited data

Results flagged for a closer look

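In 6 of the 54 sets of 4 libraries (9 members in 6 groups), 1 library stood far from the other 3 of its group by Dixon's criterion, which chance meets in about 1 in 20 sets. Serpinb1a was highest in B6_Untreated 4 at 5.03 TPM. Serpinb6a was lowest in B6_LPS 2 at 19.7 TPM and highest in C57_Untreated 3 at 97.1 TPM. In C57_LPS 2, Serpinb8 was lowest at 21.7 TPM and Serpinb9 was highest at 57.3 TPM. Serpinb9 was lowest in PWD_LPS 1 at 8.71 TPM.

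The LPS response differed between strains in the limma test of the difference itself for these members. PWD minus B6 was -1.60 for Serpinb6b, -1.87 for Serpinb9, -1.10 for Serpinb9b, -0.99 for Serpina3f and -0.86 for Serpina3g. PWD minus C57 was -0.86 for Serpinb6b, -0.68 for Serpinb9, -1.12 for Serpina3f and -1.23 for Serpina3g. The call for Serpinb9 against C57 was lost in most fits that left out 1 library, as given above. That for Serpinb9b against B6 was lost with a pseudocount of 0.1 TPM, at -0.49. With mice 1 and 2 alone Serpina3f and Serpina3g lost their calls against B6, and Serpina3f and Serpinb9 theirs against C57.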

How the results depend on the processing

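For the 81 member comparisons tested, 1125 values were recomputed. Of these 1003 kept direction and side of the threshold, 66 lost and 15 gained a call, and 41 changed sign. Of the latter, Serpinb6a for LPS in PWD and Serpinb2 for untreated PWD against B6 were called as reported. Requiring also a log2 change of 1 left 5 members for LPS in B6, 3 in PWD, 3 for the response of PWD against B6 and 2 against C57. Of all genes it left 4.42% higher and 14.3% lower for LPS in B6 and 3.90% and 6.48% in PWD. For the responses it left 2.60% higher and 2.06% lower against B6 and 1.36% and 1.25% against C57. For LPS in PWD 3 members were left without the filter, without structural RNA, without trend and robust and with only mice 1 and 2, and 3 to 5 when 1 library was left out. The first 4 of these settings called 6.62%, 13.1%, 11.1% and 12.5% of all genes higher and 26.9%, 50.1%, 52.3% and 29.8% lower. With only mice 1 and 2 the responses called were 3 (against B6) and 2 (against C57). Of all genes 27.7% were then called higher and 3.93% lower against B6, and 15.8% and 2.20% against C57. The C57 and B6 mouse-wise LPS responses were apart for 3 members (19.8% of all genes), and for 6 with only mice 1 and 2 or only mice 3 and 4. Smaller sets of mice part more easily, and no share of all genes was computed for them, so the rise cannot be read as a larger difference. The block on the mouse left 7 members called for LPS in B6, without Serpinb1a (12.0% of all genes higher and 59.9% lower). It made it 8 in C57, with Serpinb8 (10.4% of all genes higher and 52.5% lower). The replicate number carries no stated pairing between strains (24 pairs, r -0.119 to 0.128, 8 best with their own number). With that number as a block 7 members were called for untreated PWD against B6 (37.3% of all genes higher and 19.6% lower). Serpinb2 then had a limma adjusted p of 0.0649. Blocking changed no other call of a member.

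Median-of-ratios scaling turned the LPS difference of Serpinb6a to 0.43 in B6 (limma adjusted p = 0.00522) and 0.068 in PWD, of Serpinb8 to 0.016 in C57 and of Serpina3g to 0.18 in PWD. It put PWD minus C57 at 0.044 for untreated Serpinb1a and 0.052 for Serpinb6a with LPS, and the Serpinb2 responses at -0.024 (PWD minus B6) and 0.0071 (PWD minus C57). Quantile normalization gave LPS differences of 0.17 for Serpinb6a in B6 and 0.087 for Serpina3g in PWD. It put PWD minus C57 at 0.030 for untreated Serpinb1a and 0.085 for Serpinb6a with LPS. The responses of PWD minus C57 were 0.14 for Serpinb2 and 0.075 for Serpinb8 under quantile normalization. This normalization called 25.3% higher and 35.2% lower of all genes for LPS in B6, 20.7% higher and 31.3% lower in C57, 21.7% higher and 32.3% lower in PWD, 30.7% higher and 32.7% lower for untreated PWD against B6 and 34.9% higher and 34.2% lower with LPS. For the response of PWD against B6 it called 17.1% higher and 14.2% lower, and leaving out structural RNA 31.6% higher and 8.70% lower. Without structural RNA Serpinb1a stood at 0.0071 and Serpinb6a at 0.012 against C57. The Serpinb2 response against C57 then stood at 0.014, or at 0.0077 with a pseudocount of 0.1 TPM.

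Only mice 1 and 2 gave 0.016 for LPS on Serpina3g in PWD, 0.31 for Serpinb6a in PWD against C57 with LPS, and responses of 0.11 for Serpinb6a against B6 and 0.48 for Serpinb2 and 0.095 for Serpinb8 against C57. Only mice 3 and 4 gave -0.019 and -0.051 for LPS on Serpinb1a in C57 and PWD, -0.046 for it in PWD against C57 with LPS, and -0.032 for its response. They gave 0.34 (adjusted p = 0.0126) and 0.31 for Serpinb2 and Serpina3g in untreated PWD against B6. Their responses were -0.53 (adjusted p = 0.0255) for Serpinb2 against B6, -0.49 (adjusted p = 0.0373) for Serpinb2 against C57 and -0.28 for Serpinb6a against C57, and they gave -0.34 (adjusted p = 0.0262) for Serpinb6a in PWD against C57 with LPS. Serpinb2 in PWD against B6 with LPS was called at -0.87 with only mice 1 and 2 (adjusted p = 0.00856). Leaving out each library in turn, values that changed sign ranged over -0.20 to 0.056 for Serpinb6a (LPS in B6), -0.10 to 0.12 for Serpinb1a (LPS in C57), -0.18 to 0.10 for Serpina3g (untreated PWD against B6), -0.11 to 0.059 for Serpinb1a (untreated PWD against C57) and -0.035 to 0.18 for Serpinb1a (PWD against C57 with LPS). They ranged over -0.10 to 0.11 for Serpinb6a (PWD against C57 with LPS), -0.14 to 0.40 for Serpinb2 (the response against B6), -0.027 to 0.18 for Serpinb1a (the response against C57), -0.23 to 0.16 for Serpinb2 (the response against C57) and -0.16 to 0.018 for Serpinb8 (the response against C57). The cause of these shifts was not tested.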
